A study of Mus musculus with 4 samples.

Results

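Selenoproteins carry selenocysteine, an amino acid encoded by UGA, which is a stop codon in nearly all other mRNAs. The 10 selenoprotein genes described here are Gpx1, Gpx4, Txnrd1, Txnrd2, Selenow, Selenof, Selenok, Selenot, Selenoh and Msrb1. They were taken by name, each through a single Ensembl identifier, from the 37311 gene identifiers that the 4 libraries list. The 14 other selenoprotein genes of the mouse annotation were set beside them, and all 10 genes were among the 13809 that passed the filter on low counts.

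Ribosome profiling was done in J1 cells, a mouse embryonic stem cell line of strain 129S4/SvJae, cultured without feeder cells in serum with leukaemia inhibitory factor. All cells of all libraries carried short hairpins against eIF4A3 (sheIF4a3-2 and sheIF4a3-3), were selected with puromycin at 1 µg/mL for 3 days and were lysed on day 4.5 after 1 min in cycloheximide at 0.1 mg/mL. The groups were the ribosome protected fragments (RPF, the stretches of mRNA inside a ribosome) and total RNA, with 2 biological replicates each. The sources used here do not say which hairpin a replicate received or whether libraries with the same number share a lysate. Cells without the hairpins were not analysed here, so every result compares RPF with total RNA within knockdown cells. The p-values weigh that difference against the spread between these replicates, as modelled with the help of all genes tested.

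For UGA to be read as selenocysteine, the mRNA needs a hairpin in its 3′ untranslated region, the SECIS element. The protein SECISBP2 binds this element, and the elongation factor EEFSEC brings the selenocysteine tRNA to the ribosome; without them the UGA ends translation. A stop codon with an exon junction well downstream of it can mark an mRNA for nonsense-mediated decay, and eIF4A3 is a core protein of the complex deposited at exon junctions. eIF4A3 is also known to bind the SECIS element of some selenoprotein mRNAs, Gpx1 among them, and to hold back selenocysteine insertion there.

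The UGA codons differ in where they stand in the coding sequence and in what follows them, and both can be read from the mRNA. The sequences of 10 codons, from GENCODE M21 transcripts, are shown with up to 15 bases before and 12 after them, ending at the stop codon where that comes first. Sequences run 5′ to 3′ in DNA letters, and capitals mark the selenocysteine codon.
Selenow: gtgtattgtggagctTGAggctataagccc
Gpx1: aatgtcgcgtctctcTGAggcaccacgatc
Selenot: cagatttgtgtatccTGAgggtaccggcgg
Selenoh: gagcattgtacgagcTGAcgcgtgtacggc
Gpx4: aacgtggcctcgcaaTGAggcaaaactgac
Selenof: cttgaagtctgcggaTGAaaattggggagg
Msrb1: ggacaatcaagattcTGAatatttagcagc
Selenok: ccaatggctggtggaTGAggaaggtaa
Txnrd1: ctccagtctggctgcTGAggttaa
Txnrd2: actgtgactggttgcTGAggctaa

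The base after the UGA was G in 7 of the 10 mRNAs, A in Selenof and Msrb1, and C in Selenoh. Among the 14 other selenoprotein genes the base after the first such codon was G in 5, C in 5, A in 2 and T in 2. In Selenok, Txnrd1 and Txnrd2 the true stop codon, TAA, is inside the sequence shown, so only the end of the protein depends on reading through the UGA. In Selenow, at the other extreme, the UGA is codon 13 of a protein of 88 residues.

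In GRCm38 coordinates, all 10 codons lie in protein-coding exons. The Gpx1 codon is at chr9:108339451-108339453 on the plus strand, in exon 1 of 2, and the Gpx4 codon is at chr10:80054737-80054739 on the plus strand, in exon 3 of 7. The thioredoxin reductase codons are at chr10:82896037-82896039 (Txnrd1, plus strand, exon 14 of 14) and chr16:18477772-18477774 (Txnrd2, plus strand, exon 17 of 18). Those of the Rdx family are at chr7:15920464-15920466 (Selenow, minus strand, exon 2 of 6), chr3:58585238-58585240 (Selenot, plus strand, exon 2 of 6) and chr2:84670381-84670383 (Selenoh, minus strand, exon 2 of 3). Selenof has its codon at chr3:144590645-144590647 on the plus strand, in exon 3 of 5, and Selenok at chr14:29973440-29973442 on the plus strand, in exon 4 of 5. The Msrb1 codon is at chr17:24740158-24740160 on the plus strand, in exon 3 of 4.

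The share of the coding sequence that lies before the UGA ran from 13.5% in Selenow to 99.4% in Txnrd1 and Txnrd2. It was 22.8% in Gpx1, 24.5% in Selenot, 31.6% in Selenoh and 36.4% in Gpx4, all in the first 50% of the coding sequence. It was 56.4% in Selenof, 80.3% in Msrb1 and 95.8% in Selenok. The last exon junction was more than 50 nt downstream of the UGA in 7 of the 10 mRNAs, from 78 nt in Selenof to 470 nt in Selenot. In Msrb1 it was 34 nt downstream, in Selenok 5 nt downstream, and in Txnrd1 63 nt upstream, so that the Txnrd1 codon alone of the 10 lies in the last exon.

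**Figure D1:**
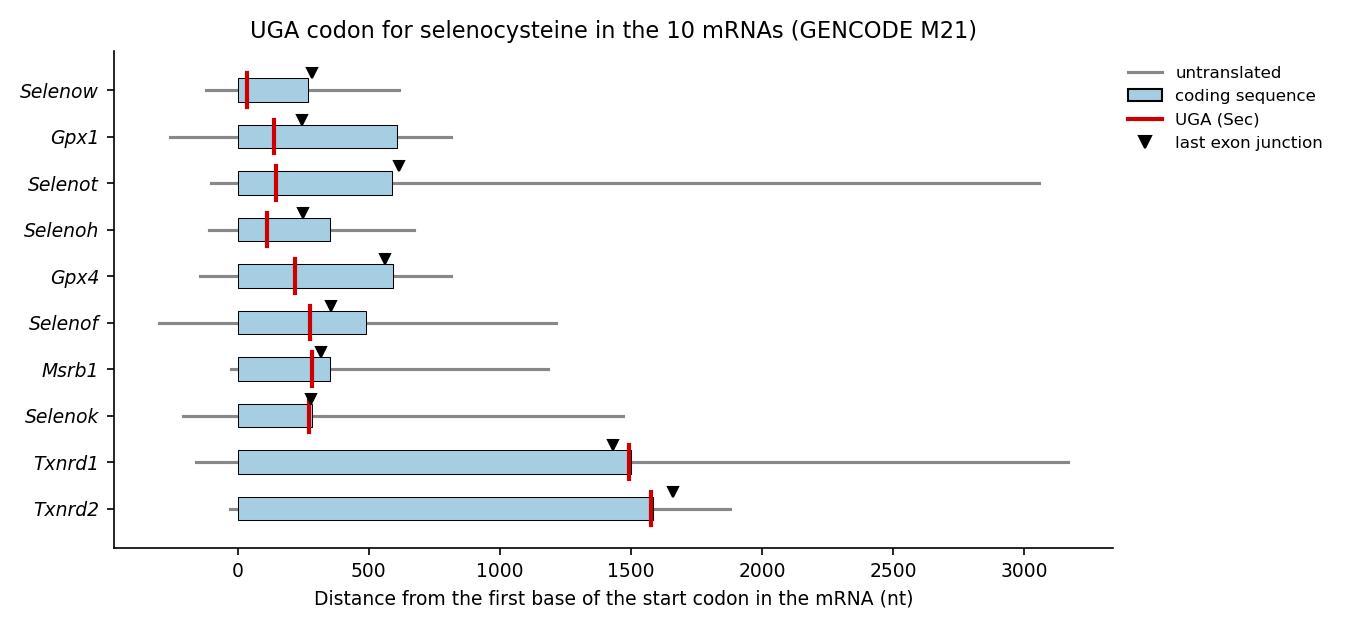
Each row is the representative mRNA of 1 gene, drawn to scale in nucleotides from the first base of the start codon, with untranslated sequence as a line, coding sequence as a box, the UGA codon as a red bar and the last exon junction as a triangle. Rows run from the earliest UGA in the coding sequence (Selenow, 13.5%) to the latest (Txnrd1 and Txnrd2, 99.4%).

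The libraries held 7615277 to 9434987 gene counts, and a count of 0 would allow up to 0.318 to 0.394 CPM (counts scaled to the size of the library), a limit that covers counting error only. All 12 embryonic stem cell markers were above 1 CPM in total RNA, with summed levels of 5613 to 5884 CPM in the 4 libraries. The sums were 16.5 to 18.9 CPM for 10 fibroblast markers. Of these, 5 were above 1 CPM in total RNA, and Dcn and Postn were at 0 there. Summed levels were 43.9 to 61.8 CPM for 8 primitive endoderm markers (6 above 1 CPM and Afp at 0 in total RNA). They were 10.3 to 13.0 CPM for 7 trophectoderm markers (5 above 1 CPM and Elf5 at 0). For 7 mesoderm and neuroectoderm markers they were 8.80 to 14.6 CPM (3 above 1 CPM). The limit and the marker levels above are scaled to library size alone. All CPM from here on also carry the factors of the trimmed mean of M-values (TMM) listed under processing. Eif4a3, the targeted gene, was at 212 and 193 CPM in RPF and at 120 and 101 CPM in total RNA. Without unmodified cells these levels do not check the knockdown. Reads that matched more than 1 place were tallied by the authors' counting but given to no gene.

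The 10 mRNAs spanned a wide range of levels. Compared per kilobase of the representative mRNA in total RNA, Gpx4 was highest at 349 ± 21.2 CPM per kb (SD, n = 2), followed by Gpx1 at 306 ± 12.6 and Selenoh at 226 ± 40.7. Below these came Txnrd1 at 86.4 ± 15.8, Selenof at 76.5 ± 4.33, Selenow at 46.3 ± 0.953, Selenot at 39.4 ± 4.93, Msrb1 at 16.8 ± 3.85, Selenok at 15.4 ± 0.530 and Txnrd2 at 2.41 ± 0.880 CPM per kb. Txnrd1 and Selenof overlapped between replicates, as did Msrb1 and Selenok, and the other neighbours in this order did not. The first place of Gpx4 depends on the length used. Its representative mRNA has 959 nt, but the merged exons of its coding transcripts have 1272 nt. For Gpx1 both lengths are 1072 nt, and per kilobase of merged exons Gpx1 would stand above Gpx4. In pooled cultures such as these, fewer cells with an mRNA and less of it per cell cannot be told apart.

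Per kilobase of coding sequence, the RPF levels were led by Gpx1 at 585 ± 33.2 CPM per kb, with Gpx4 at 434 ± 4.28 and Selenoh at 372 ± 183 behind it. Selenof followed at 229 ± 11.7, Txnrd1 at 205 ± 5.10, Selenok at 160 ± 53.4, Selenot at 81.8 ± 4.11, Selenow at 77.3 ± 11.96 and Msrb1 at 72.3 ± 29.9, and Txnrd2 was lowest at 4.24 ± 0.115 CPM per kb. The replicates of Gpx4 and Selenoh overlapped in this order, and so did those of Selenot and Selenow and of Selenow and Msrb1. Gpx1 and Gpx4 changed places between the fractions on these lengths, which depends on the transcript chosen for Gpx4. Reads that matched more than 1 place were given to no gene. Of the 28-nucleotide windows of the coding sequence, 84.5% in Gpx4 and 84.9% in Selenok also occur in other genes, against 0% in Gpx1. Outside it the shares were 62.4% in Gpx4 and 3.96% in Selenok. The RPF levels and places of Gpx4 and Selenok may thus be too low. Selenok stood sixth in RPF and last but one in total RNA. RPF per coding kilobase and total RNA per kilobase of mRNA are different scales, so their sizes are not compared with each other.

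**Figure D2:**
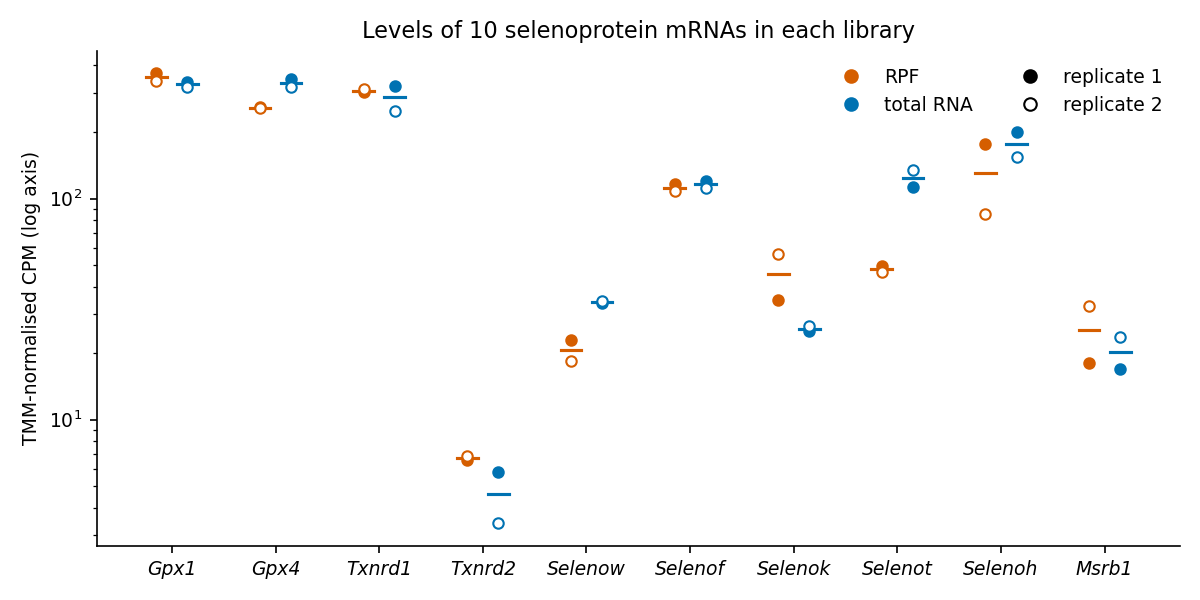
Points are the TMM-normalised CPM of each gene in the 2 RPF and 2 total RNA libraries (log axis; filled, replicate 1; open, replicate 2), and bars are means of 2. Selenot and Selenow lie lower in RPF and Selenok higher, while the RPF replicates of Selenoh, at 176 and 85.0 CPM, lie on either side of one total RNA replicate.

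Between RPF and total RNA, 1 of the 10 mRNAs (Selenok) was higher in RPF, 2 (Selenow and Selenot) were lower, and 7 did not pass an adjusted p of 0.05 (edgeR's quasi-likelihood test with Benjamini-Hochberg adjustment over all genes tested). Of all 13809 genes tested, 20.5% were higher and 21.2% were lower, beside 10% and 20% of the members. In either direction 41.7% of all genes passed, against 3 of the 10. The log2 ratio, RPF over total RNA, had a median of 0.02 over the 10 genes and -0.02 over all genes tested. Both RPF libraries lay above both total RNA libraries in 3 of the 10 genes and below them in 3, against 34.9% and 37.9% of all genes tested. Scaling to library size alone moved the median of all genes to -0.46 and then gave 0 of the 10 higher and 5 lower. Without RPF replicate 1, 2 of the 10 were higher, and without RPF replicate 2 or total RNA replicate 1 there were 0. Without total RNA replicate 1 or total RNA replicate 2, 1 of the 10 was lower.

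Selenot, Selenow and Selenoh belong to the Rdx family, small proteins with a thioredoxin-like fold. Selenot, a membrane protein of the endoplasmic reticulum (ER), was at 49.8 and 46.4 CPM in RPF and at 113 and 135 CPM in total RNA. Both RPF libraries were thus far under both total RNA libraries. The RPF mean of 48.1 ± 2.42 CPM was 2.58-fold lower than the total RNA mean of 124 ± 15.6 CPM (SD, n = 2 each), a log2 ratio of -1.37 ± 0.15 (SE; edgeR adjusted p = 0.00108). This was the lowest ratio of the 10 genes, and it passed the test in all 14 alternative analyses, where it ran from -1.81 to -0.86. Of the 28-nucleotide windows of the Selenot coding sequence, 18.7% also occur in transcripts of other genes, among them the pseudogene Selenot-ps, against 1.47% of those outside it. Its RPF level is the more uncertain of its levels, and the effect on its ratio was not tested.

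Selenow, a small cytosolic selenoprotein, was at 22.9 and 18.4 CPM in RPF and at 33.6 and 34.6 CPM in total RNA. The groups did not overlap, and RPF was 1.65-fold lower, at 20.6 ± 3.19 CPM against 34.1 ± 0.701 CPM. Its log2 ratio was -0.72 ± 0.18 (edgeR adjusted p = 0.0191), and none of its 28-nucleotide windows occurs in another gene's transcripts. Without total RNA replicate 1 the adjusted p was 0.0686, without total RNA replicate 2 it was 0.0908, and against a fold of 1.5 it was 0.259. The ratio of Selenow exceeded that of Selenot by 0.65, and by 0.42 to 0.85 over the 4 ways to pair an RPF with a total RNA library.

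Selenoh, a nucleolar protein that binds DNA, was at 176 and 85.0 CPM in RPF and at 199 and 154 CPM in total RNA. RPF replicate 1 lay between the total RNA libraries and RPF replicate 2 lay far below them. The log2 ratio was -0.44 ± 0.32 (edgeR adjusted p = 0.308), and it turned from 0.01 without RPF replicate 2 (adjusted p = 0.977) to -1.04 without RPF replicate 1 (adjusted p = 4.59e-05). No direction is therefore given for Selenoh.

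Gpx1 and Gpx4 are glutathione peroxidases. Gpx1, the abundant cytosolic enzyme that reduces hydrogen peroxide, was at 369 and 340 CPM in RPF and at 338 and 319 CPM in total RNA. Both RPF libraries were the higher ones, but the lower of them lay closer to total RNA replicate 1 than to the other RPF library. RPF averaged 355 ± 20.1 CPM and total RNA 328 ± 13.5 CPM, and the log2 ratio was 0.11 ± 0.15 (edgeR adjusted p = 0.580). Its sign turned to -0.32 with scaling to library size alone, and to -0.02 after correction for the coding share of its transcripts.

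Gpx4 reduces lipid hydroperoxides in membranes and guards cells against ferroptosis. It was at 260 and 256 CPM in RPF and at 349 and 320 CPM in total RNA, with both RPF libraries below both total RNA libraries. The log2 ratio of -0.38 ± 0.15 did not pass (edgeR adjusted p = 0.0753), although the groups, at 258 ± 2.54 and 335 ± 20.4 CPM, were apart. It passed in 4 of the 14 alternatives, where its adjusted p reached from 0.000184 to 0.963. Of the windows of its coding sequence, 84.5% also occur in the pseudogenes Gpx4-ps2 or AC122253.3, against 62.4% of those outside it, so both of its levels are uncertain, and the effect on its ratio was not tested. The Gpx1 ratio exceeded that of Gpx4 by 0.49 (0.42 to 0.55 over the 4 pairings), and no Gpx1 window is shared with another gene.

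The genes whose pattern over the 4 libraries was most like that of Gpx1 were Polr3g, Srpr and Exoc4, at Euclidean distances of 0.024, 0.026 and 0.036 between centred log2 CPM, among 8731 protein-coding genes of at least 10 CPM. Those nearest to Gpx4 were Ugp2 (0.022), Kdm2a (0.025) and Myo19 (0.030). With only 4 libraries, such distances describe a ratio and its replicate spread and little else.

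Txnrd1 and Txnrd2 are the cytosolic and the mitochondrial thioredoxin reductase, which keep thioredoxins reduced and have selenocysteine as their last residue but one. Txnrd1 was at 302 and 313 CPM in RPF and at 324 and 250 CPM in total RNA, so that both RPF libraries lay inside the range of the total RNA libraries. Its log2 ratio was 0.10 ± 0.17 (edgeR adjusted p = 0.683), and it turned to -0.08 without total RNA replicate 2. Txnrd2 was much scarcer, at 6.59 and 6.85 CPM in RPF and at 5.78 and 3.41 CPM in total RNA, from 33 to 59 counts a library. RPF was the higher in each pairing, but the total RNA replicates differed more from each other than did the RPF replicates, and the log2 ratio of 0.55 ± 0.35 did not pass (edgeR adjusted p = 0.252).

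Selenof and Selenok are ER proteins. Selenof, which binds the glycoprotein folding sensor UGGT, was at 116 and 108 CPM in RPF and at 121 and 111 CPM in total RNA. The groups overlapped, and the log2 ratio of -0.05 ± 0.14 was the nearest to 0 of the 10 genes (edgeR adjusted p = 0.792). It was 0.02 without RPF replicate 2 and 0.35 after correction for coding share.

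Selenok, a membrane protein that works with the palmitoyl transferase ZDHHC6, was at 34.9 and 56.4 CPM in RPF and at 25.2 and 26.4 CPM in total RNA. Both RPF libraries were higher, replicate 2 by far more than replicate 1. RPF averaged 45.7 ± 15.2 CPM, 1.77-fold higher than total RNA at 25.8 ± 0.890 CPM, with a log2 ratio of 0.82 ± 0.24 (edgeR adjusted p = 0.0305). Selenok no longer passed when RPF replicate 2 was left out (log2 ratio 0.45, adjusted p = 0.0908), without total RNA replicate 1 (adjusted p = 0.0630), with library size alone (0.40, adjusted p = 0.271) and against a fold of 1.5 (adjusted p = 0.207). Of the windows of its coding sequence, 84.9% occur in transcripts of other genes, largely Selenok pseudogenes, against 3.96% of those outside it. Its RPF level is therefore the more uncertain of its levels, and the effect on its ratio was not tested.

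Msrb1, which repairs oxidised methionine, was at 18.0 and 32.8 CPM in RPF and at 17.0 and 23.6 CPM in total RNA. Replicate 2 was the higher in both fractions and the groups overlapped. The log2 ratio was 0.32 ± 0.31 (edgeR adjusted p = 0.449), with -0.16 without RPF replicate 2 and 0.70 without RPF replicate 1, where it passed (adjusted p = 0.0147).

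**Figure D3:**
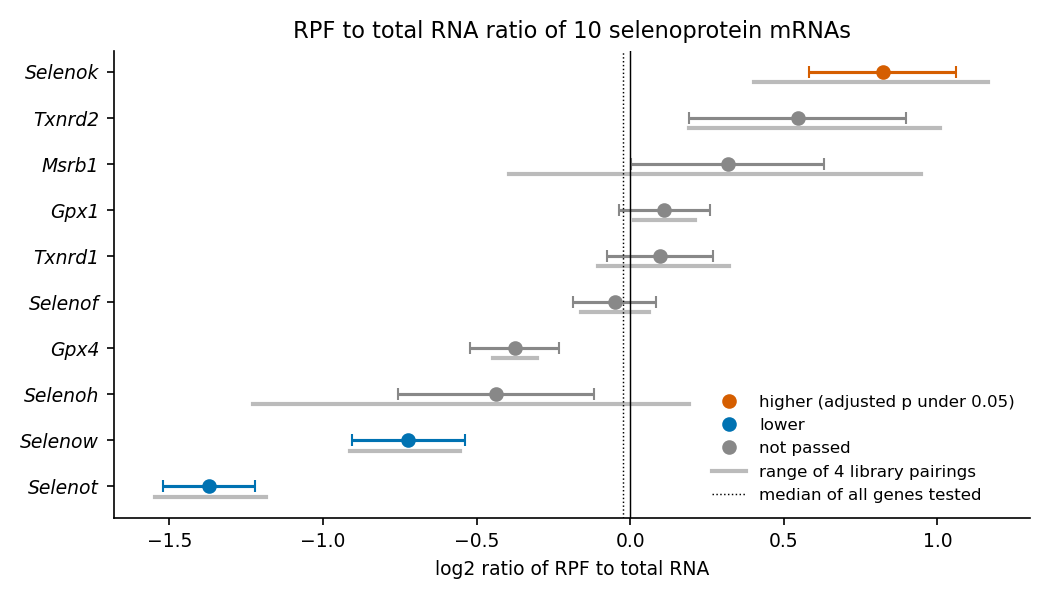
Points are log2 ratios, RPF over total RNA, with bars of 1 SE, ordered by size, and grey lines span the 4 ways to pair an RPF with a total RNA library. Selenot (-1.37) and Selenow (-0.72) were lower and Selenok (0.82) was higher, while the grey lines of Selenoh, Msrb1, Txnrd1 and Selenof cross 0.

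The RPF replicates stood 1.5-fold or more apart in 3 of the 10 genes, against 12.2% of the 9021 genes of at least 10 CPM. In Selenoh replicate 1 was 2.07-fold the higher, while in Selenok and Msrb1 replicate 2 was higher, by 1.62-fold and 1.83-fold. Between the total RNA replicates such a gap was found in Txnrd2 alone of the 10 (1.70-fold), a gene below 10 CPM, against 5.33% of those 9021 genes.

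Total RNA reads come from the whole mRNA while RPF come largely from its coding part, so the ratio was also set beside that of genes with a like coding share. Coding sequence made up 16.8% of exon length in Selenok, 18.5% in Selenot and 66.3% in Gpx4, the extremes among the 10. After the correction Selenok was at 1.37 (edgeR adjusted p = 0.00478), Selenot at -0.86 (0.00465) and Selenow at -0.60 (0.0367), and these calls kept their direction. Gpx4 then stood at -0.55 and passed (adjusted p = 0.0238). The counts are sums over whole genes, so they do not say on which side of the UGA a fragment lay.

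The ratios of the 10 genes had a lower median where the UGA came early. The 5 with the UGA in the first 50% of the coding sequence (Selenow, Gpx1, Selenot, Selenoh and Gpx4) had a median log2 ratio of -0.44, with 4 of 5 below 0 and 2 called lower. For the 5 with a later UGA (Selenof, Msrb1, Selenok, Txnrd1 and Txnrd2) the median was 0.32, with 4 of 5 above 0 and 1 called higher. The medians are the values of single genes that turn sign with the library left out: -0.44 is that of Selenoh (0.01 without RPF replicate 2) and 0.32 that of Msrb1 (-0.16 without it). The difference of the medians was 0.75, and it was 0.50 to 1.33 over the 4 pairings of libraries, 0.44 without RPF replicate 2 and 1.46 without RPF replicate 1. Across the 10 genes, Pearson's r between the share of coding sequence before the UGA and the ratio was 0.78 and Spearman's rho was 0.71, as a description over genes that share the same 4 libraries and are not independent replicates. Coding length, which itself went with the position of the UGA (r = 0.56), had r = 0.26 with the ratio. The length of the 3′ untranslated region had r = -0.33 and rho = -0.10. The split was chosen with the values in view.

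In the 10 other selenoprotein genes that passed the filter the medians were -0.02 for the 4 with an early UGA and -0.19 for the 6 with a late one. This difference of -0.17, late less early, changed sign with the setting: it was 0.03 after correction for coding share, 0.25 with exon length added and 0.05 without total RNA replicate 2. Pearson's r and rho with the share of coding sequence before the UGA were 0.42 and 0.45 over these 10 genes. With the length of the 3′ untranslated region they were -0.32 and -0.65. Gpx3 and Selenom have an early UGA and ratios of 0.34 and 0.69, while Selenoi has a late one and a ratio of -0.48. Over all 20 genes r was 0.57 and rho was 0.55. Where the last exon junction was more than 50 nt downstream of the UGA the median was -0.38 for 7 of the 10 members, against 0.32 for the other 3. The 7 are all the members with an early UGA plus Selenof and Txnrd2, so this split is not separate from that by position. In Txnrd2 the last junction also lies 77 nt past the true stop codon. The 0.32 is the value of Msrb1, which was -0.16 without RPF replicate 2. In the other selenoprotein genes the medians were -0.11 (4 genes) and -0.13 (6 genes). The 6 include Dio3 and Sephs2, whose mRNAs have no exon junction.

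**Figure D4:**
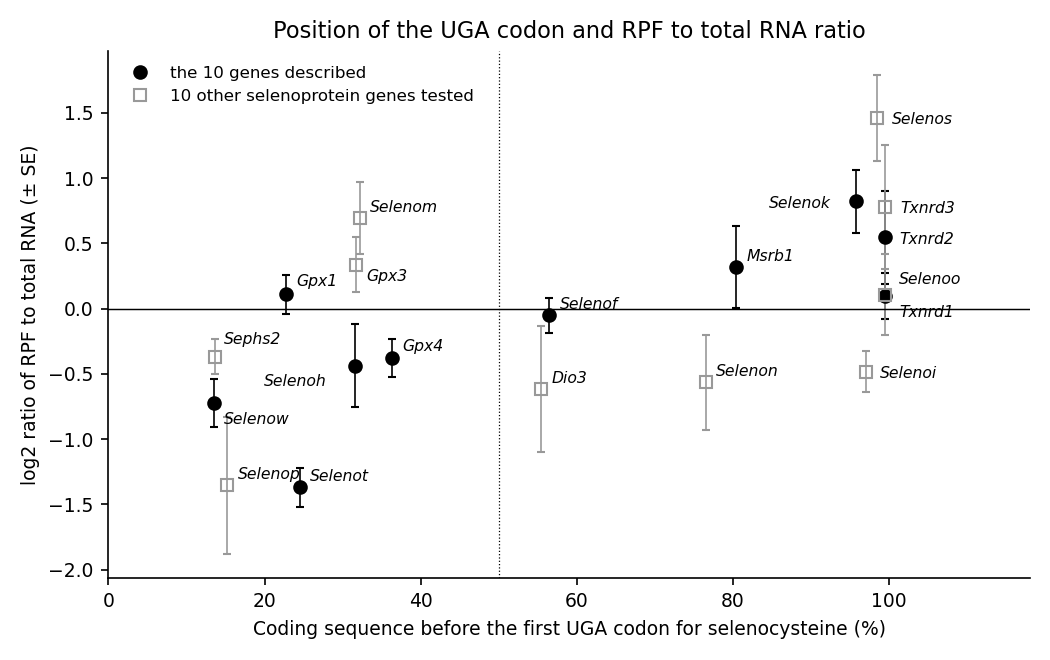
The share of the coding sequence before the first selenocysteine UGA (x axis, percent) is plotted against the log2 ratio, RPF over total RNA (y axis, bars of 1 SE) for the 10 genes described (filled circles) and 10 other selenoprotein genes (open squares); the dotted line marks 50%. The circles lie lower on the left (median -0.44) than on the right (median 0.32), and the squares have medians of -0.02 and -0.19, a difference whose sign changes with the setting (0.03 after correction for coding share, 0.25 with exon length added, 0.05 without total RNA replicate 2).

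Among the 14 other selenoprotein genes, Dio1, Dio2, Gpx2 and Selenov were below the count filter. Of the 10 tested 1 was higher (10%, against 20.5% of all genes tested) and 1 was lower (10%, against 21.2%), with a median of -0.13. Selenos, a membrane protein that links the ER to the segregase VCP, was at 61.0 and 123 CPM in RPF and at 27.6 and 39.1 CPM in total RNA. Both RPF libraries were higher, replicate 2 the more so as in Selenok, and the log2 ratio was 1.46 ± 0.33 (edgeR adjusted p = 0.0123). Selenoi, an enzyme of ethanolamine phospholipid synthesis, was lower, at 34.3 and 41.0 CPM against 50.6 and 54.4 CPM (log2 ratio -0.48 ± 0.16, edgeR adjusted p = 0.0455). Selenoi no longer passed when RPF replicate 1 (adjusted p = 0.185), total RNA replicate 1 (0.136) or total RNA replicate 2 (0.258) was left out, and the sign turned to 0.05 after correction for coding share. Without RPF replicate 2, 2 of the 10 were higher.

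A list of 15 genes linked to selenocysteine synthesis or UGA recoding passed the filter whole. It holds Sephs1 but not Sephs2, itself a selenoprotein gene. Of the 15, 3 were higher (20%, against 20.5% of all genes tested) and 4 were lower (26.7%, against 21.2%). The other 8 did not pass, and the median was 0.04. Highest was Ncl (nucleolin, an RNA-binding protein reported to bind SECIS elements), at 1.17 ± 0.23 (edgeR adjusted p = 0.00679, and 0.0914 without total RNA replicate 2). Sars, the seryl-tRNA synthetase that charges the selenocysteine tRNA with serine, was at 1.16 ± 0.18 (adjusted p = 0.00322). Eefsec was at 0.72 ± 0.19 (adjusted p = 0.0210) and passed in 8 of the 14 alternatives. It was at 0.80 and 0.64 without total RNA replicates 1 and 2, and at 0.28 (adjusted p = 0.277) under library size alone. After correction for coding share it was at 0.56 (adjusted p = 0.0523), and with exon length added at 0.55 (0.0617). Against a fold of 1.5 its adjusted p was 0.271. Lowest was Secisbp2l, a paralogue of the SECIS-binding protein, at -1.16 ± 0.17 (adjusted p = 0.00248). Sepsecs, the synthase that converts the serine to selenocysteine, was at -0.98 ± 0.18 (adjusted p = 0.00598), and at -0.56 (0.0521) once coding share and exon length were both corrected for. Celf1, an RNA-binding protein, was at -0.79 ± 0.14 (adjusted p = 0.00536), and at -0.29 (0.158) after correction for coding share. Alkbh8, which modifies the selenocysteine tRNA, was at -0.69 ± 0.20 (adjusted p = 0.0312) and passed in 7 of the 14 alternatives. It was at -0.30 (adjusted p = 0.282) after correction for coding share, and its adjusted p was 0.0620 without RPF replicate 2, 0.179 without total RNA replicate 1, 0.104 without total RNA replicate 2 and 0.0848 in DESeq2. Secisbp2 itself was at 0.04 ± 0.16 (adjusted p = 0.862), with its sign turning to -0.38 with library size alone. Without total RNA replicate 2, 1 of the 15 was higher.

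Homologues without selenocysteine are read without recoding. They are called cysteine homologues here after the name of the list, and the residue was not checked for each gene. Sephs1 is counted here and in the recoding list above. Of 9 such genes 7 passed the filter, with a median of 0.36. Of these 1 was higher (14.3%, against 20.5% of all genes tested) and 0 were lower (against 21.2%). The higher one was Gpx8 (1.27 ± 0.37, edgeR adjusted p = 0.0310), at a mean below 10 CPM. At an unadjusted edgeR p under 0.05, 2 were higher and 1 was lower. DESeq2 called 0 higher, and limma-voom called 1 lower. Leaving out either total RNA replicate gave 0 higher, and leaving out RPF replicate 1 gave 1 lower. Among those of at least 10 CPM, Mien1, a cysteine relative of Selenow, had the highest ratio at 0.60 ± 0.24 (adjusted p = 0.0777) and Sephs1, the relative of the selenoprotein Sephs2, the lowest at -0.10 ± 0.19 (adjusted p = 0.700). Sephs2 itself was at -0.37 ± 0.13 (adjusted p = 0.0614).

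Genes of the thioredoxin and glutathione systems and relatives by name were tested as a list of 20. Not all of them are partners of the thioredoxin reductases or glutathione peroxidases. Of the 20, 10 were higher (50%, against 20.5% of all genes tested) and 1 was lower (5%, against 21.2%), with a median of 0.52. Txn1, the cytosolic thioredoxin that Txnrd1 reduces, was at 543 and 442 CPM in RPF and at 161 CPM in both total RNA libraries, a log2 ratio of 1.61 ± 0.17 (edgeR adjusted p = 0.000967). The RPF libraries were far above those of total RNA, while Txnrd1 itself overlapped between the fractions. Rrm1 and Rrm2, the ribonucleotide reductase subunits, were at 1.27 ± 0.26 and 1.04 ± 0.19, and glutathione reductase (Gsr) was at 0.45 ± 0.18 (adjusted p = 0.0895). Txnl4a, a splicing factor with a thioredoxin fold, was lowest at -0.90 ± 0.18 (adjusted p = 0.00708). After correction for coding share it was at -0.26 (adjusted p = 0.287), and without total RNA replicate 1 its adjusted p was 0.0564. Without total RNA replicate 2, 6 of the 20 were higher, and without RPF replicate 1, 2 were lower.

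A list of 9 made for ER quality control also holds the NRF2 inhibitor Keap1, and its median was 0.20. Of the 9, 4 were higher (44.4%, against 20.5% of all genes tested) and 1 was lower (11.1%, against 21.2%). Vcp, the segregase that pulls proteins from the ER membrane, was at 1.00 ± 0.20 (edgeR adjusted p = 0.00745, and 0.0764 without total RNA replicate 2), and Derl2, a membrane protein of the same pathway, was at -0.91 ± 0.16 (adjusted p = 0.00514), and at -0.37 (0.111) after correction for coding share. Uggt1, to whose product Selenof binds, was at 0.68 ± 0.14 (adjusted p = 0.00918, lost without total RNA replicate 1 at 0.0980, without total RNA replicate 2 at 0.0916 and under library size alone at 0.210), and Zdhhc6, the partner of Selenok, was at -0.51 ± 0.18 (adjusted p = 0.0554; without RPF replicate 2 it passed at 0.00395). The number higher was 1 without total RNA replicate 1 and 2 without total RNA replicate 2, and the number lower was 2 without RPF replicate 2.

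Txnrd1 and Srxn1 are among the genes that the oxidant-responsive factor NRF2 drives. Of 10 genes of this pathway 8 passed the filter, with a median of 1.11. Of these 5 were higher (62.5%, against 20.5% of all genes tested) and 2 were lower (25%, against 21.2%). Gstm1, a glutathione transferase, was highest at 1.80 ± 0.24 (edgeR adjusted p = 0.00203). Hmox1, which breaks down haem, was at 1.47 ± 0.14 (adjusted p = 0.000776), and Nfe2l2, which encodes NRF2, was at 1.06 ± 0.13 (adjusted p = 0.00163). Srxn1, which repairs overoxidised peroxiredoxins, was lowest at -1.78 ± 0.29 (adjusted p = 0.00365).

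**Figure D5:**
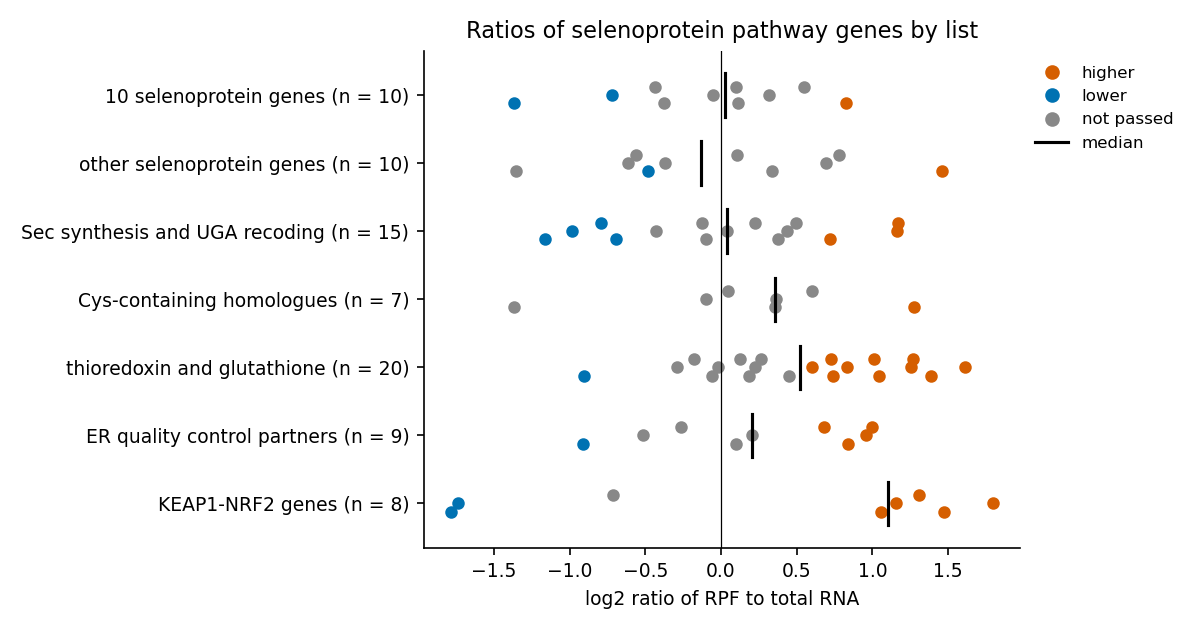
Each point is the log2 ratio (RPF over total RNA) of 1 gene that passed the count filter, by list, with n the number tested, colours for higher, lower and not passed in edgeR at an adjusted p of 0.05, and a black bar for the median. The 10 selenoprotein genes centre at 0.02, and the medians of the lists run from -0.13 (other selenoprotein genes) to 1.11 (KEAP1-NRF2 genes).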

How the data were processed

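RPF and total RNA libraries of eIF4A3 knockdown cells (2 replicates each) were compared. Values deposited by the authors are raw counts of reads for each gene, without scaling. Per the submitters' processing notes, Bowtie 1.2.3, TopHat2 2.1.1, HTSeq 0.11.2, edgeR 3.26.8 and build mm9 were used; per the labels, each RPF sample was sequenced in 4 runs. The sources used here do not state the annotation release, the counted feature or the use of strand. Tallies given to no gene were left out: no feature took 5.95% and 6.66% of RPF and 23.4% and 26.2% of total RNA alignments, and alignments to more than 1 place 16.5% to 21.0%. Those tallied as ambiguous took 4.96% and 8.58% of RPF and 0.755% and 0.719% of total RNA alignments. The effect of this difference between the fractions was not tested.

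Identifiers were matched without version to GENCODE M21 (GRCm38), which named 32621 of 37311 (87.4%). Ratios were fitted in edgeR 4.0.16 (R 4.3.3, limma 3.58.1) by glmQLFit and glmQLFTest on fraction alone, after filterByExpr (minimum count 10, minimum total 15) and trimmed mean of M-values (TMM) factors of 0.821 and 0.902 (RPF) and 1.14 and 1.18 (total RNA). Tests were two-sided, with Benjamini-Hochberg adjustment over 13809 genes and a threshold of 0.05. The fit was also run on simulated counts with the same dispersion for every gene and few changed genes. That run does not check the fit under the conditions of these data. The alternatives (14) were DESeq2 size factors, library size alone, no count filter, the DESeq2 1.42.0 test, limma-voom, glmTreat against a fold of 1.5, the replicate number as a block, protein-coding genes only, loess corrections (span 0.5) for coding share alone and with exon length, and leaving out each library. With a library left out, the lone sample of a group is assumed to vary like the other group.

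The members and all lists were chosen with earlier results of these data known. Named were the 10 members, Eif4a3, the highest and lowest ratio of each list at 10 CPM or more, other listed genes, and the 3 genes nearest to Gpx1 and Gpx4. Representative transcripts were the APPRIS principal ones. Shared windows are 28 nt long and on either strand.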

Additional observations from a re-analysis of the deposited data

How the results depend on the processing

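The design sets the main limits: 2 replicates a fraction, no unmodified cells, and counts per gene that do not resolve the UGA. Over 14 alternatives Selenot kept its call in 14, Selenow in 11 and Selenok in 10. Leaving out 1 library gave log2 ratios of 0.06 to 0.18 for Gpx1, -0.44 to -0.32 for Gpx4, -0.0801 to 0.29 for Txnrd1, 0.22 to 0.97 for Txnrd2, -0.88 to -0.56 for Selenow and -0.11 to 0.0165 for Selenof. They were 0.45 to 1.14 for Selenok, -1.50 to -1.24 for Selenot, -1.04 to 0.0086 for Selenoh and -0.16 to 0.70 for Msrb1. The number of members called was 0 to 2 higher and 1 to 3 lower, and that of all genes 1720 to 3341 higher and 1857 to 3440 lower (2835 and 2930 with all libraries). Numbers higher and lower were 1 to 2 and 0 to 1 for other selenoprotein genes, 1 to 4 and 3 to 4 for selenocysteine synthesis and recoding, and 0 to 1 and 0 to 1 for cysteine homologues. They were 6 to 11 and 0 to 2 for thioredoxin and glutathione, and 1 to 4 and 1 to 2 for ER partners.

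With library size only, Gpx1 (-0.32), Txnrd1 (-0.33), Msrb1 (-0.10), Gpx3 (-0.10) and Secisbp2 (-0.38) changed sign, Selenok was not called (0.40), and Gpx4 (-0.81), Selenof (-0.48) and Selenoh (-0.89) were called lower. All genes then gave 1223 higher and 4961 lower calls, 19.8% of calls higher against 49.2%, with 0 and 5 among the members, 0 and 3 among other selenoprotein genes, 0 and 2 among cysteine homologues, 6 and 4 for thioredoxin and glutathione and 1 and 3 for ER partners. The replicate block, which the labels do not establish as a pairing, called Gpx4 (-0.37) and Selenoh (-0.50) lower. Over the genes tested, deviations of same-numbered RPF and total RNA libraries from the mean of their fraction correlated at 0.41. The replicate block gave 4257 higher and 4365 lower of all genes, 4 members lower, 2 higher and 3 lower of other selenoprotein genes, 7 higher for selenocysteine synthesis and recoding, 2 higher and 1 lower of cysteine homologues, 2 lower for thioredoxin and glutathione and 3 lower for ER partners. Against a fold of 1.5, Selenow (-0.72) and Selenok (0.82) were not called, and counts higher and lower were 1155 and 1549 for all genes, 0 and 1 for members, 0 lower for other selenoprotein genes, 1 lower for selenocysteine synthesis and recoding, 0 higher for cysteine homologues, 6 and 0 for thioredoxin and glutathione and 0 and 0 for ER partners.

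The coding share correction turned Gpx1 (-0.0162), Selenof (0.35), Selenoi (0.0497), Secisbp2 (-0.13) and Sephs1 (0.37), called Gpx4 lower (-0.55), and left 0 lower for thioredoxin and glutathione and for ER partners. With exon length added, Gpx1 (-0.46), Selenof (0.0233), Selenoi (0.16) and Sephs1 (0.47) had the other sign, Gpx4 (-0.95) was called lower, and 1837 of all genes were lower. That setting left 2 lower for selenocysteine synthesis and recoding, 0 higher for cysteine homologues, 0 lower for thioredoxin and glutathione, and 0 lower for ER partners, and the difference of the medians by UGA position, an alternative added after seeing the data, was 1.16 in the members and 0.25 in the other selenoprotein genes (-0.17 without correction). Without a count filter Secisbp2 was at -0.0017, and no filter, DESeq2 size factors and DESeq2 each gave 0 other selenoprotein genes lower, where protein-coding genes only gave 2, and 2 ER partners lower. DESeq2 gave 0 cysteine homologues higher and limma-voom 1 lower. Leaving out 1 library gave -0.14 (RPF replicate 2) to 0.23 for Secisbp2, with -0.0044 without total RNA replicate 2, and -0.31 to 0.13 (total RNA replicate 1) for Sephs1, with 0.04 without RPF replicate 2, and gave 0.0038 for Selenof without total RNA replicate 1. The cause of these changes was not tested.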
